A study of Mus musculus with 12 samples.

Results

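The 4 Hox clusters were followed through lists of ATAC-seq summits, the points of highest signal within peaks of chromatin open to Tn5 transposase. A summit was counted as a Hox summit when the nearest end of a protein-coding gene within 100 kb belonged to 1 of 38 listed Hox genes, or when it lay inside a cluster. By this rule 455 of 386209 summits in 12 mouse embryoid body libraries were Hox summits. The clusters were the spans of their listed genes in mm10: Hoxa on chromosome 6 (52162417 to 52260880, 10 genes, Hoxa2 to Hoxa13), Hoxb on chromosome 11 (96194316 to 96368254, 10 genes, Hoxb13 to Hoxb1), Hoxc on chromosome 15 (102921131 to 103036856, 9 genes, Hoxc13 to Hoxc4) and Hoxd on chromosome 2 (74668225 to 74765142, 9 genes, Hoxd13 to Hoxd1). The farthest Hox summit lay 49386 bp from its gene, beyond Hoxc4, and 0 summits nearest a listed gene lay beyond 100 kb.

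Mouse embryonic stem cells were turned into embryoid bodies in mesodermal medium. Foxk1 knockout (KO) cells were sampled at days 3, 5 and 10, cells of a line labelled iHA-Foxk1, the control here, at days 3 and 5, and cells labelled Control at day 10. Each of the 6 groups has 2 libraries. All carried the note NoDox, and the stem cells had been kept on irradiated mouse fibroblasts that were plated off before differentiation. The labels do not say what part of Foxk1, a forkhead transcription factor gene, was deleted, or whether a line is 1 clone. Nothing shows that both libraries of a group are independent cultures, and p-values below may reflect technical spread alone. The 2 lists labelled KO day 5 hold peaks whose names carry the day tag 7, and in comparisons with them genotype and a difference in day cannot be told apart.

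Hox genes encode homeodomain transcription factors that assign position along the body axis. Within a cluster the genes are numbered by paralogue group, and in the embryo low groups are activated earlier and further forward than high groups, an order known as colinearity. In stem cells the clusters are held silent by Polycomb complexes, and retinoic acid, Wnt and FGF signals and Cdx factors open them from the early end. Paralogue groups 1 to 3 are called early here (7 genes), groups 4 to 8 middle (15 genes) and groups 9 to 13 late (16 genes).

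Promoter sequence is shown for 4 genes because the summits in those windows carry much of what follows. Hoxd13 and Hoxa13, which pattern the digits, kept a promoter summit in 7 libraries. Hoxd1 is an early gene whose window held a summit in 7 libraries, all those of day 3 among them. A site in it was called between the genotypes at day 5, by its rank. Hoxb1, which specifies a hindbrain segment and activates its own promoter together with Pbx proteins, had a promoter summit at day 3 alone. Each window runs from 250 bases before to 50 bases after a RefSeq gene start (GRCm38.p6, the assembly of mm10), 5′ to 3′: Hoxb1 at chr11:96365508-96365807 (+ strand), Hoxd1 at chr2:74762730-74763029 (+), Hoxd13 at chr2:74667975-74668274 (+) and Hoxa13 at chr6:52260831-52261130 (- strand). Capitals mark a match to 1 of 5 motifs searched on both strands, here TGATNNAT, the letters of a joint Hox and Pbx site, which match once, in Hoxb1.
Hoxb1: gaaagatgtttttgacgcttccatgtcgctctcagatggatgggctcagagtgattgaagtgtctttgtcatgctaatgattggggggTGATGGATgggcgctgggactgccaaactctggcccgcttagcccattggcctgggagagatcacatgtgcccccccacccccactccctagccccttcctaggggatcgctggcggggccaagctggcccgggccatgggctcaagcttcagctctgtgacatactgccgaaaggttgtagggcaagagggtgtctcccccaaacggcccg
Hoxd1: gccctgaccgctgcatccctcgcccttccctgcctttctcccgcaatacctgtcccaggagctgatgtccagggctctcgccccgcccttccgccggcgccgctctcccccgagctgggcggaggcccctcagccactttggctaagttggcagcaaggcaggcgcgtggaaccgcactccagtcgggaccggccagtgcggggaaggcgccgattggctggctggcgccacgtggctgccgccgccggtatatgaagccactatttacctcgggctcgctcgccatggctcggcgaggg
Hoxd13: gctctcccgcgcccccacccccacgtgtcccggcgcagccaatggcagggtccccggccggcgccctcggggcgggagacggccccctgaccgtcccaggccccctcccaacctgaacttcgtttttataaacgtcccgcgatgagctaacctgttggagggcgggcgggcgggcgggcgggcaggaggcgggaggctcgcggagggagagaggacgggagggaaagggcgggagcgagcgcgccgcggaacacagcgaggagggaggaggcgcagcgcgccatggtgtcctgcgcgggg
Hoxa13: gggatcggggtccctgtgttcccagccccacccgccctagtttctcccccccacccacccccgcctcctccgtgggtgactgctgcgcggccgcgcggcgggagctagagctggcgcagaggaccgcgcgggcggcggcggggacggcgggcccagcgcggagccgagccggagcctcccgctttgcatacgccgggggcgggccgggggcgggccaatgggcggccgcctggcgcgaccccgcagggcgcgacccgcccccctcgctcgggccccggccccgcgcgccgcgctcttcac

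The clusters also hold microRNA genes. For each, 1 mature strand is shown with the seed, bases 2 to 8, in capitals, since the genes fall into families that repeat between clusters. Mir10a and Mir10b, in Hoxb and Hoxd, share a seed, as do Mir196a-1, Mir196a-2 and Mir196b in Hoxb, Hoxc and Hoxa. The miR-196 family is known to target Hox transcripts. Mir615 lies inside Hoxc5 and shares neither seed.
mmu-miR-10a-5p: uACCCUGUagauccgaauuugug
mmu-miR-10b-5p: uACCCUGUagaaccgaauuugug
mmu-miR-196a-5p: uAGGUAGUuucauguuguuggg
mmu-miR-196b-5p: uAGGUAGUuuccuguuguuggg
mmu-miR-615-3p: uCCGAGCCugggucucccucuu

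Hox chromatin held open sites at days 3 and 5, most of them low in the ranking of their lists. At day 3 the KO lists held 90 and 85 Hox summits and the iHA-Foxk1 lists 52 and 70. At day 5 the KO lists held 56 and 41 and the iHA-Foxk1 lists 6 and 55. Per 10000 summits, the day 3 KO lists held 15.3 (95% Wilson interval 12.4 to 18.7) and 15.9 (12.9 to 19.7), and the day 3 control lists 9.72 (7.42 to 12.7) and 12.9 (10.2 to 16.3). The day 5 KO lists held 11.6 (8.91 to 15.0) and 9.73 (7.18 to 13.2), and the day 5 control lists 4.13 (1.89 to 9.01) and 16.2 (12.4 to 21.02). The intervals cover counting error only. The iHA-Foxk1 day 5 libraries lay far apart: replicate 1 has a list of 14519 summits, 58.4% of them within 1 kb of a gene end, against 34040 to 59006 summits and 23.0% to 35.8% in the other 7 libraries of these days. Results that rest on it are given with and without it.

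All 38 genes had at least 1 Hox summit in some library. Ranked by score within their own list, Hox summits stood low: the median Hox summit was at 62.6% to 81.7% of the list, and the best-scoring 25% held 0 to 2 Hox summits in any of the 8 lists. Between 74.5% and 100% lay in the lower 50% of the list. In 7 of the 8 libraries 32.7% to 44.2% of Hox summits lay within 1 kb of a gene end, and in replicate 1 of iHA-Foxk1 at day 5 the share was 33.3%. Because Hox summits sit near the bottom, how many a list holds depends on how far down it runs, and libraries are compared below over the same number N of best-scoring summits.

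**Figure D1:**
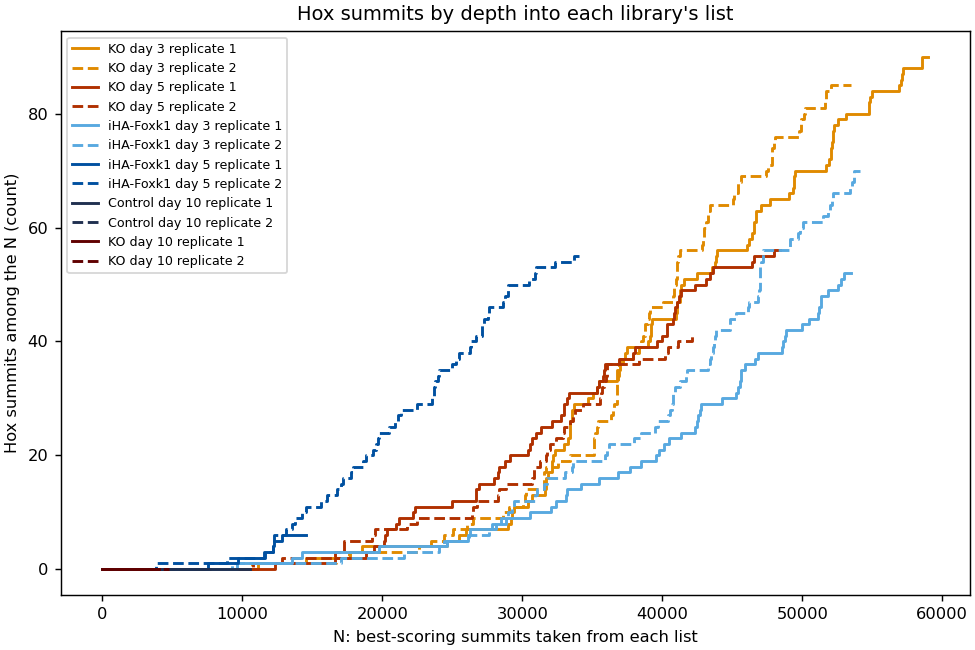
Cumulative number of Hox summits (y, count) among the N best-scoring summits (x) of each library; 1 line per library, solid for replicate 1 and dashed for replicate 2. All lines hold at most 2 over the first 10000 summits; iHA-Foxk1 day 5 replicate 2 leaves the others earliest and reaches 55 at 34040, and the 4 day 10 lines stay at 0.

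At day 10 no list held a Hox summit. The Control lists had 10548 and 7764 summits and the KO lists 4028 and 4755, and a count of 0 allows up to 2.84, 3.86, 7.45 and 6.31 Hox summits per 10000. The 4028 best summits of the day 3 and day 5 libraries held 0 Hox summits in 7 libraries and 1 in iHA-Foxk1 day 5 replicate 2. A loss of open Hox chromatin by day 10 was therefore not detectable at this depth. Of 3639 regions reproducible at day 10, 9.84% were KO-only and 11.8% control-only, and 0 were Hox regions. The day 10 names also lack the duplicate-removal tag of the other days.

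Over the 8 libraries of days 3 and 5 Hox summits merged at 250 bp into 146 regions. Sites held by every library were rare: 4 regions (2.74%) had a summit in all 8, against 10.2% of all 103094 regions. Leaving out iHA-Foxk1 day 5 replicate 1, 16 Hox regions (10.96%) were found in all 7 libraries, against 17.3% of all regions. These 16 steady regions belonged to 15 genes, with 8 near late, 4 near middle and 4 near early genes, and 8 lay within 1 kb of a gene end. All 4 clusters contributed. The 4 regions in all 8 libraries lay near Hoxb1, Hoxc6, Hoxd10 and Hoxd1.

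The highest-ranked steady site was at Hoxc13, a gene known for its role in hair and nails. A region 346 bp outside its lower end (chr15:102920746-102920824) ranked 11139 and 10713 in the KO at day 3, 12308 and 10758 in the KO at day 5, 9628 and 9248 in iHA-Foxk1 at day 3 and 8893 in iHA-Foxk1 day 5 replicate 2. It was the best-ranked Hox summit in 6 of the 8 libraries. At day 3 both iHA-Foxk1 libraries stood above both KO libraries, by rank number and as a percentage of the list (17.1% and 18.0% against 18.9% and 20.04%). At day 5 the groups overlapped, since iHA-Foxk1 replicate 1 does not list the region among its 14519 summits. A region inside Hoxb4, 500 bp from its lower end (chr11:96318586-96318949), a gene known from blood stem cells, ranked 41301 and 45135 in the KO at day 3, 39548 and 27659 in iHA-Foxk1 at day 3, 20319 and 21731 in the KO at day 5 and 18808 in iHA-Foxk1 day 5 replicate 2. By rank number the 3 day 5 libraries that list it stood above the day 3 libraries without overlap, but as a percentage of the list, 42.0% to 55.3% against 51.1% to 84.4%, the days overlapped.

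The promoters of Hoxd13 and Hoxa13 were listed in the same 7 libraries. The Hoxd13 window printed above held a summit of rank 17694 and 17655 in the day 3 KO libraries and 19765 and 17027 in the day 3 controls, and 22346 and 19296 in the KO and 19766 in iHA-Foxk1 replicate 2 at day 5. By rank number the days overlapped, but as a percentage of the list day 3 lay at 29.99% to 36.96% and day 5 at 45.8% to 58.1%, without overlap. The lists that hold it ran to 53456 to 59006 summits at day 3 and 34040 to 48391 at day 5. The part of list length in this was not tested. In the Hoxa13 window the day 3 KO libraries had ranks of 31853 and 28648 and the day 3 controls 48781 and 40668. The day 5 KO libraries had 16626 and 16617 and replicate 2 of iHA-Foxk1 16044, so this promoter stood higher in all 3 day 5 libraries that list it than in any day 3 library. At day 3 both KO libraries ranked it above both iHA-Foxk1 libraries. Both orders also held as a percentage of the list, over which this region ranged from 34.4% to 91.2%.

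**Figure D2:**
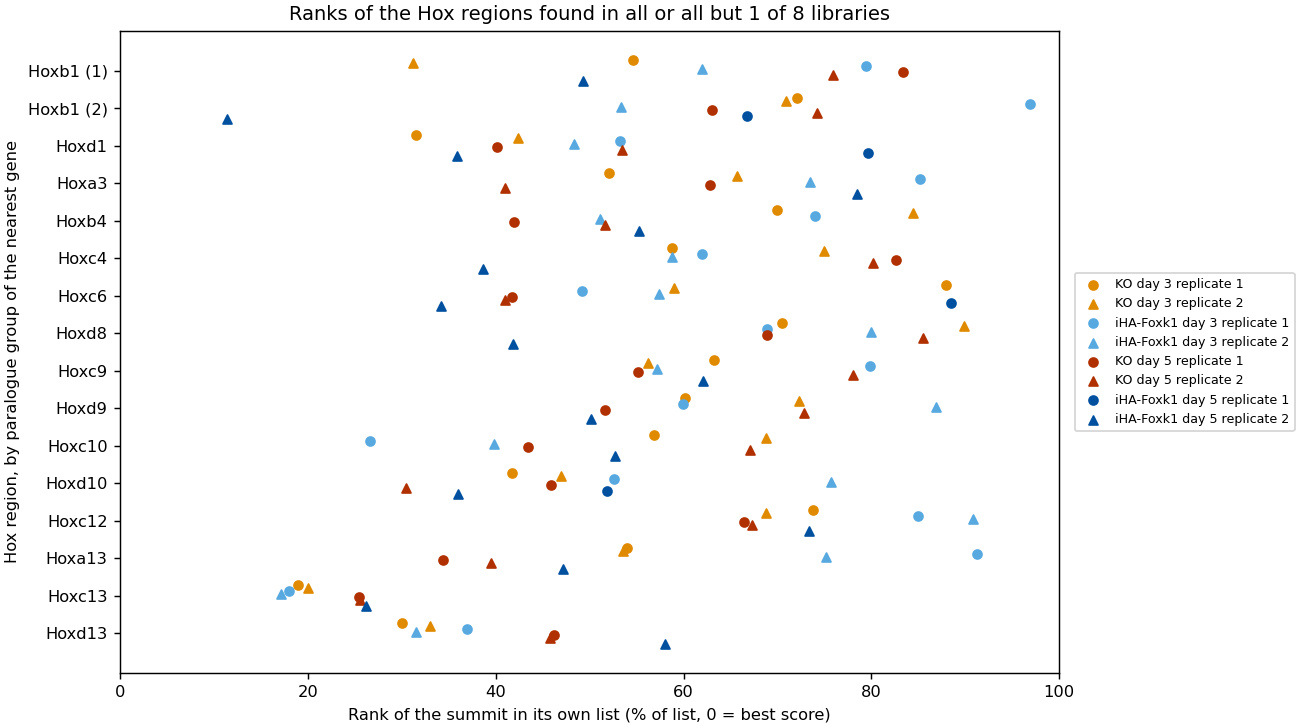
Rank of each summit as a percentage of its own list (x, 0 = best score) for the 16 Hox regions held by all or all but 1 of the 8 libraries of days 3 and 5 (y, named by the nearest gene, ordered by paralogue group); 1 point per library. Hoxb1 (1) is the region 1745 bp before the gene and Hoxb1 (2) the region 29 kb beyond it; Hoxc13 holds the narrowest range, near 17% to 26%, and Hoxb1 (2) the widest, 11.3% to 96.9%.

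Most of the Hox promoter windows that could be matched held no summit. RefSeq windows were matched for 22 of the 38 genes (24 windows), and promoters of the remaining genes were not covered. Among the genes not covered, Hoxc10 had a region 159 bp from a gene end in 7 libraries. Hoxb7 and Hoxb13 had regions 97 and 68 bp from a gene end in 4 libraries each. A summit fell in the windows of Hoxd13, Hoxd1 and Hoxa13 in 7 libraries each, Hoxd10 in 6, Hoxa5 and Hoxb1 in 3 each and Hoxa11 in 1, and the windows of the other 15 genes held none. Per library, 4.17% to 25.0% of Hox windows held a summit, against 20.3% to 41.1% of 21045 windows of all protein-coding genes. CG dinucleotides numbered a median of 14.5 per Hox window against 13 in all windows. The 3 matched windows with summits in 7 libraries were CG-rich, with 45 in Hoxa13, 37 in Hoxd13 and 29 in Hoxd1, and the Hoxb1 window had 10.

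None of the 24 Hox windows held the forkhead letters TGTTTAC, which 3.03% of all windows hold. TTTATNG, for Cdx factors, was in 2 (8.33% against 9.49% of all), CTTTGAT, for Tcf and Lef, in 1 (4.17% against 3.25%), and GGTGTGA, for T-box factors, in 1 (4.17% against 3.67%). TGATNNAT was in 4, those of Hoxa2, Hoxb1, Hoxb8 and Hoxd11 (16.7% against 7.36%). In the Hoxb1 window it covers bases 89 to 96, and the day 3 summits lay at bases 93 and 182 in the KO and 130 in iHA-Foxk1 replicate 2. Of the microRNA genes, Mir615 had a summit within 1 kb in 7 libraries and Mir196b in 3, both KO libraries and iHA-Foxk1 replicate 2 of day 3. Those of the miR-10 family and both Mir196a genes had none within 1 kb in any library.

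**Figure D3:**
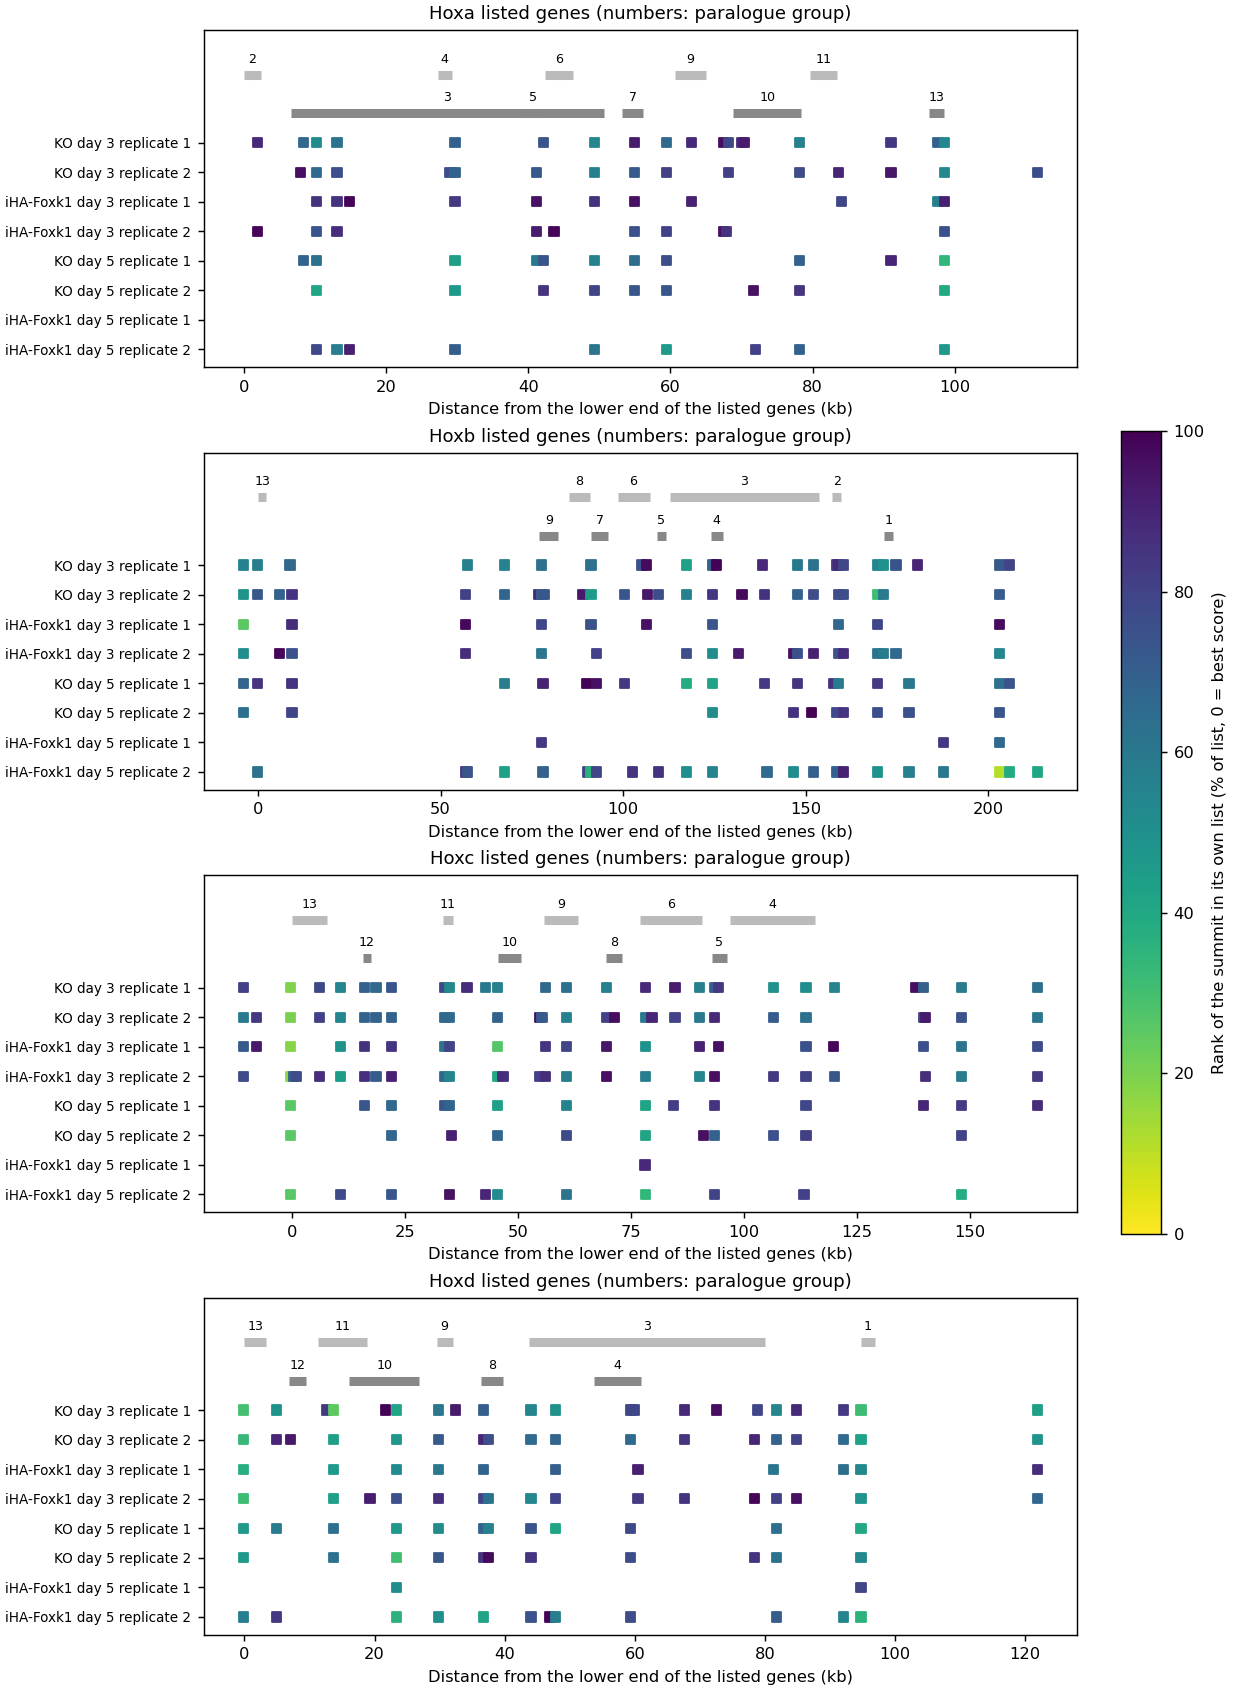
Hox regions along each cluster, against the distance in kb from the lower end of the listed genes (x); gene spans are grey bars with paralogue group numbers, each row is 1 library of days 3 and 5, and colour gives the summit's rank as a percentage of its list (yellow best, dark purple last). Columns of squares at the ends of Hoxc13, Hoxd13 and Hoxa13 run through 7 rows; the row of iHA-Foxk1 day 5 replicate 1 is almost empty.

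At day 3 the KO libraries held more Hox summits than the controls in 3 of the 4 clusters and in each paralogue class. Among the 53456 best summits the KO had 80 and 85 and iHA-Foxk1 52 and 67. Counts in Hoxb were 22 and 25 against 10 and 18, in Hoxd 18 and 18 against 11 and 15, and in Hoxa 15 and 15 against 11 and 8. In Hoxc they were 25 and 27 against 20 and 26, which overlap. Early genes had 25 and 20 against 12 and 18, middle genes 21 and 29 against 17 and 19, and late genes 34 and 36 against 23 and 30. With 2 against 2 libraries a two-sided exact permutation test cannot go below p = 0.333, so none was made on these counts. Fibroblast marker genes had 49 and 43 summits in the KO against 43 and 46 in iHA-Foxk1, which overlap. They were listed to stand for feeder cells, but these data do not tell feeder cells from other cells open at these genes.

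Merged over the 4 day 3 libraries, 63 Hox regions were reproducible, that is, present in both libraries of at least 1 genotype, and 31 of them (49.2%) were in all 4, against 62.1% of all reproducible regions. In the KO libraries alone were 8 regions (12.7%), beside 9.74% of all 52244 reproducible regions. In the iHA-Foxk1 libraries alone was 1 region (1.59%), beside 9.58% of all. Of the 8 KO-only regions 6 lay near late genes, 2 near middle genes and 0 near early genes. All 63 reproducible Hox regions divided into 28 near late, 17 near middle and 18 near early genes.

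Of these 8, 3 had no iHA-Foxk1 day 3 summit within 5 kb. The region 9618 bp below Hoxb9 (chr11:96261699-96261726) ranked 32983 and 36372 in the KO libraries. It was also listed in KO day 5 replicate 1 (28003) and iHA-Foxk1 day 5 replicate 2 (14551). A region at the upper end of Hoxa10 (chr6:52240506-52240568), a gene of the posterior axis and the uterus, ranked 33430 and 41258 in the KO at day 3. It was found again in both KO day 5 libraries (33183 and 35701) and in iHA-Foxk1 day 5 replicate 2 (23702). The third, between Hoxa11 and Hoxa13 (chr6:52253305-52253412), ranked near the bottom, at 49439 and 50218. Thus the first and second of these sites were missing from the day 3 controls and present in a control library of day 5.

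The other 5 KO-only regions had a control summit closer than 5 kb. They were the lower end of Hoxb13 (chr11:96194267-96194316, ranks 33694 and 39002), the body of Hoxc5 near Mir615 (chr15:103014644-103014853, 41266 and 47417), a site 1558 bp from Hoxd13 (chr2:74673136-74673187, 29163 and 47834), the body of Hoxd4 (chr2:74727429-74727588, 46437 and 35211) and the lower end of Hoxa10 near Mir196b (chr6:52230559-52230653, 46714 and 43397). At Hoxc5 and this end of Hoxa10 the nearest control summit lay 353 and 260 bp away, just past the merging distance of 250 bp. The control-only region was at the upper end of Hoxd4 (chr2:74728679-74728731, ranks 48845 and 44826), and a KO summit lay 551 bp from it.

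Summed per gene at day 3, 37 listed genes had a summit among the 53456 best. Counts of Hoxa13 (3 and 3 against 2 and 1), Hoxb9 (3 and 5 against 2 and 2), Hoxd3 (5 and 5 against 2 and 4) and Hoxd13 (2 and 2 against 1 and 1) were higher in the KO without overlap of the groups, beside 9.28% of all genes. None was lower without overlap, beside 8.69% of all genes. Hoxb9 and Hoxd13 are posterior genes, and Hoxd3 is an early gene of the neck region. Of the other genes at the ends of the clusters, Hoxa2 had 1 and 0 against 0 and 0, Hoxb1 6 and 3 against 2 and 4, Hoxb13 3 and 4 against 2 and 3, Hoxc4 6 and 6 against 5 and 6, Hoxc13 4 and 5 against 4 and 6 and Hoxd1 3 and 3 against 3 and 2. In these 6 genes the groups overlapped or met.

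The per-gene numbers were tested with limma on log2(summits + 1), with the residual variance taken from all genes of like mean. Degrees of freedom were summed over all genes tested, so very small p-values reflect the number of genes and not of libraries. Of 33 Hox genes tested, 1 passed an adjusted p of 0.05: Hoxb3, an early gene of the hindbrain, with 3 and 3 summits in the KO against 0 and 4 in iHA-Foxk1 (log2 difference 0.84 ± 0.23 SE, limma adjusted p = 0.0182). Its groups overlap, the iHA-Foxk1 libraries being the lowest and the highest, and the shared variance does not take in this gene's own spread. The call held without iHA-Foxk1 replicate 2 and was lost without KO replicate 1 or 2 (limma adjusted p = 0.865 and 0.926). Without iHA-Foxk1 replicate 1 the sign turned (log2 difference -0.32, limma adjusted p = 1). With N divided by 2 Hoxb3 had too few summits to be tested, and the 1 Hox gene called was another. The called share of all genes was 1.34% higher and 1.27% lower. Before adjustment 10 of the 33 had p below 0.05, against 13.8% of all genes. The log2 difference was above 0 for 22 of the 33 Hox genes, beside 31.9% of all genes, and below 0 for 2, beside 28.7%. The Hox median was 0.29, beside 0 over all 17540 genes.

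**Figure D4:**
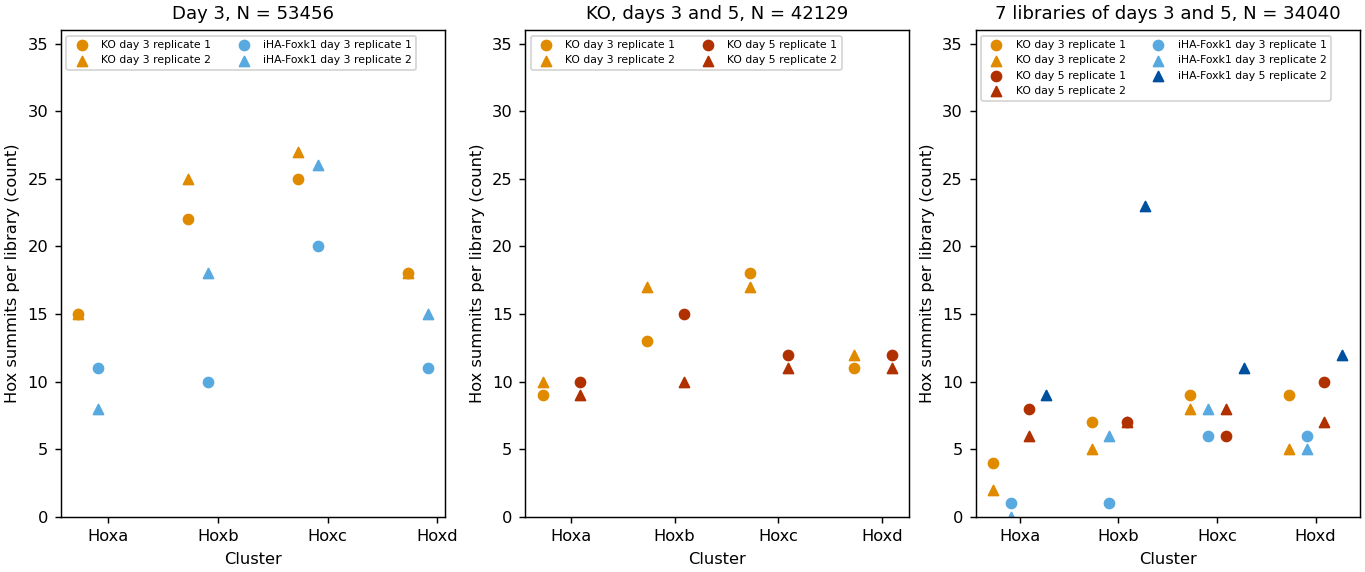
Hox summits per library (y, count) in each cluster (x) among the N best-scoring summits of each library; 1 point per library, circles for replicate 1 and triangles for replicate 2, no error bars. At day 3 KO points lie above iHA-Foxk1 points in Hoxa, Hoxb and Hoxd; at N = 34040 iHA-Foxk1 day 5 replicate 2 stands alone at 23 in Hoxb.

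At day 3 the KO libraries again had more Hox summits over the 42129 and 34040 best summits, but not over the 14519 best. Among the 42129 best they had 51 and 56 and the controls 24 and 35, and among the 34040 best 29 and 20 against 14 and 19. Among the 14519 best, where nearly all Hox summits are out of reach, they had 1 and 1 against 3 and 1.

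The genes that act on the clusters were listed separately, and their counts are read beside the 9.74% KO-only and 9.58% control-only of all regions. Of 103 reproducible regions near 26 upstream regulators, such as Cdx, Wnt, Fgf and retinoic acid pathway genes, 7 were KO-only and 17 control-only at day 3. Near 9 cofactor genes, the Pbx, Meis and Pknox genes whose proteins bind DNA with Hox proteins, 5 were KO-only and 5 control-only of 68. Near 24 of 25 chromatin regulator genes, the Polycomb and Trithorax groups among them, 4 and 1 of 65 were so called, and near 13 genes that flank the clusters 6 and 4 of 50. By limma 0 genes of these 4 lists passed at day 3. Mesoderm genes had 8 KO-only and 18 control-only regions of 58.

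At day 5, over a smaller N, the order of the genotypes was the reverse of day 3; the difference between the days was not tested. Among the 14519 best summits iHA-Foxk1 had 6 and 10 Hox summits and the KO 1 and 2. In Hoxb the controls had 3 and 4 and the KO 0 and 0, in Hoxd 2 and 3 against 0 and 1, in Hoxc 1 and 3 against 1 and 1, and in Hoxa 0 in all 4 libraries. Early genes had 3 and 4 against 0 and 0, middle genes 1 and 4 against 0 and 0, and late genes 2 and 2 against 1 and 2. Fibroblast marker genes had 13 and 8 summits in iHA-Foxk1 and 2 and 3 in the KO. Of the 14 markers 8 and 7 were at 0 against 13 and 12. Upstream regulators (20 and 18 against 14 and 13) and cofactors (22 and 19 against 14 and 16) also stood higher in iHA-Foxk1. So did mesoderm genes (9 and 13 against 5 and 5) and genes flanking the clusters (13 and 13 against 11 and 8). Chromatin regulators and pluripotency genes overlapped or met. The part of these lists in the Hox result was not tested.

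Of 5 reproducible Hox regions at day 5, 3 were control-only, beside 7.96% of all 14275 regions, and 0 were KO-only, beside 12.1%. All 3 were also in the full KO lists, further down. The first lay 29 kb beyond Hoxb1 (chr11:96397328-96397438), on the side of early genes. It ranked 9691 and 3853 in iHA-Foxk1 against 30522 and 31257 in the KO. The second, inside Hoxc6 (position 102999354 on chromosome 15), ranked 12841 and 11626 against 20210 and 17282. The third, at the start of Hoxd1 (chr2:74763012-74763023, inside the printed window), ranked 11566 and 12223 against 19396 and 22506. All 4 libraries thus held each site. The groups did not overlap by rank number, but the control-only call itself requires this of any site held by all 4 libraries. As a percentage of the list the groups did overlap at all 3 sites. Hoxc6 stood at 88.4% and 34.2% of the iHA-Foxk1 lists against 41.8% and 41.02% in the KO. Hoxd1 stood at 79.7% and 35.9% against 40.1% and 53.4%. The Hoxb1 site stood at 66.7% and 11.3% against 63.1% and 74.2%.

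The limma test at day 5 had 5 Hox genes with enough summits. Hoxb1 passed, with 0 and 0 summits in the KO against 2 and 3 in iHA-Foxk1 (log2 difference -1.79 ± 0.28 SE, limma adjusted p = 1.76e-07), beside 0.881% of all genes called lower and 0.486% higher. The control summits counted here all lay 13935 to 39596 bp beyond the gene, and none at its promoter or in its body. The 29 kb site, counted in both control libraries, was also in both KO lists below this N (ranks 30522 and 31257). The call was lost without KO replicate 1 or 2 (limma adjusted p = 0.0595 and 0.0681) and held without iHA-Foxk1 replicate 1. Without iHA-Foxk1 replicate 2, and with N divided by 2, Hoxb1 had too few summits to be tested. Hoxc6 and Hoxd1, with 0 and 0 against 1 and 1 each, did not pass (limma adjusted p = 0.346). By non-overlap 3 genes, these and Hoxb1, were lower in the KO, beside 6.67% of all genes, and 0 were higher, beside 5.63%. Of the related lists, Cdx2, an activator of the clusters, and Meis2, a cofactor, were called lower in the KO. So were the mesoderm gene Hand1 and 3 fibroblast markers, Col1a2, Loxl1 and Pdgfrb.

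Leaving out the short list, iHA-Foxk1 replicate 2 was set against both KO libraries over 34040 summits. It had 55 Hox summits against 31 and 28. Of 57 regions in it or in both KO libraries, 25 (43.9%) were in the control library alone, beside 27.6% of all such regions, and 2 (3.51%) in the KO alone, beside 19.9%. In Hoxb 16 of 24 regions were control-only, in Hoxa 3 of 9, in Hoxc 3 of 11 and in Hoxd 3 of 13. By class 11 of 21 early, 7 of 14 middle and 7 of 22 late regions were control-only. The rule is looser for a lone library, and no replicate supports these counts. Fibroblast markers had 39 summits in this library and 22 and 26 in the KO. Upstream regulators (76 against 54 and 54), flanking genes (44 against 29 and 25) and mesoderm genes (40 against 29 and 23) also stood higher. So did cofactors (56 against 50 and 46) and chromatin regulators (56 against 50 and 51). Pluripotency genes stood lower (24 against 37 and 40).

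In the same setting limma called Hoxb9 (log2 difference -1.82 ± 0.36 SE, adjusted p = 6.45e-05), Hoxb3 (-1.50 ± 0.33, adjusted p = 0.000249), Hoxa10 (-1.08 ± 0.31, adjusted p = 0.00875) and Hoxb1 (-1.01 ± 0.30, adjusted p = 0.0111) lower in the KO. For Hoxa7 the limma difference was higher in the KO (1.00 ± 0.31, limma adjusted p = 0.0111). These are 5 of 27 Hox genes tested, beside 3.49% of all genes called lower and 8.16% higher. The lone library is assumed to vary like the others.

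Within the KO line the order of the days depended on depth. Among the 42129 best summits day 3 had 51 and 56 Hox summits and day 5 49 and 41, while among the 34040 best day 3 had 29 and 20 and day 5 31 and 28, which overlap. Hoxc had 18 and 17 at day 3 and 12 and 11 at day 5, and the other 3 clusters overlapped. Late genes had 24 and 24 against 19 and 15, while early and middle genes overlapped. Fibroblast markers had 32 and 30 at day 3 and 33 and 33 at day 5.

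Of 45 reproducible regions 9 (20%) were found at day 3 alone, beside 10.8% of all 41708, and 2 (4.44%) at day 5 alone, beside 8.68%. With N divided by 2 this order turned, with 0 regions at day 3 alone and 2 at day 5 alone. The day 3-only sites lay near Hoxb9, Hoxb7, Hoxb3, Hoxb1, Hoxc13, Hoxc12, Hoxc6, Hoxc4 and Hoxd1, and 0 were in Hoxa. The Hoxb1 site was the promoter printed above, with ranks 28972 and 31718 in the KO at day 3 and no summit within it at day 5 in either genotype. Beyond Hoxd1, a region 24986 bp out (chr2:74790110-74790147) ranked 25974 and 26017 in the KO at day 3 and 46658 and 36184 in iHA-Foxk1 at day 3, and no day 5 library listed it. A region 3152 bp from Hoxc13 (chr15:102931965-102931967) ranked 32111 and 29085 in the KO libraries of day 3 and 26142 and 24402 in their controls, and at day 5 only iHA-Foxk1 replicate 2 listed it (26254).

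The day 5-only sites of the KO were 4353 bp beyond Hoxb1 (chr11:96372602-96372612, ranks 29129 and 31708) and the promoter of Hoxa5 (chr6:52204552-52204584, ranks 35779 and 35817), a gene of lung and rib patterning. The Hoxb1 site was also in iHA-Foxk1 day 5 replicate 2 (19316) and in no day 3 library. The Hoxa5 site was also in KO day 3 replicate 1, below the N used here (43766). Around Hoxb1 the KO lists thus held the promoter at day 3 alone and the site beyond the gene at day 5 alone.

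By limma 1 of 31 Hox genes passed between the days of the KO: Hoxb9, with 1 and 0 summits at day 5 and 3 and 3 at day 3 (log2 difference -1.50 ± 0.32 SE, adjusted p = 0.000353), beside 1.09% of all genes called lower and 1.53% higher. The call held without any 1 of the 4 libraries, at -0.71 without KO day 5 replicate 2. With N divided by 2 Hoxb9 had too few summits to be tested. By non-overlap Hoxd8 was higher at day 5, beside 9.14% of all genes. Hoxa13, Hoxb3, Hoxb7, Hoxb9, Hoxc4, Hoxc9, Hoxc13 and Hoxd1 were lower, 8 of 33 with a summit, beside 8.45% of all genes. The median log2 difference of Hox genes was 0, as over all genes.

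Within iHA-Foxk1 more Hox summits were listed at day 5 than at day 3 over the same N. Among the 14519 best summits day 3 had 3 and 1 Hox summits and day 5 had 6 and 10. Of 5 reproducible regions 4 were called at day 5 alone within this N, beside 13.4% of all 15158, and 0 at day 3 alone, beside 22.5%. They were the 3 sites called at day 5 between the genotypes, near Hoxb1, Hoxc6 and Hoxd1, and a site inside Hoxd10 (chr2:74691529-74691723). At Hoxd10, a posterior and limb gene, the ranks were 7533 and 12245 at day 5 and 28110 and 40947 at day 3. These comparisons share the day 5 control libraries, so their overlap is no separate support.

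Of 5 Hox genes tested by limma, Hoxb1 (2 and 3 summits at day 5, 0 and 0 at day 3, log2 difference 1.79 ± 0.16 SE, adjusted p = 5.85e-28) and Hoxc6, Hoxd1 and Hoxd10 (1 and 1 against 0 and 0, 1.00 ± 0.36, adjusted p = 0.0277) passed. The day 5 summits counted for Hoxb1 were those 13935 to 39596 bp beyond the gene. The background was wide here, with 13.6% of all genes called higher and 8.2% lower. Before adjustment 29.1% of all genes had a limma p below 0.05. Without iHA-Foxk1 day 3 replicate 1 or 2 Hoxb1 kept its call (limma adjusted p = 0.00243 and 0.00336), and Hoxc6, Hoxd1 and Hoxd10 lost theirs (limma adjusted p = 0.404 and 0.416). Without iHA-Foxk1 day 5 replicate 2 none of the 4 could be tested. By non-overlap the same 4 genes were higher, beside 13.1% of all genes, and 0 were lower, beside 10%. Fibroblast markers had 4 and 3 summits at day 3 and 13 and 8 at day 5, and 5 of the 7 tested were called higher. Their part was not tested. Limma also called higher 7 of 23 chromatin regulators, 4 of 14 upstream regulators and 3 of 7 mesoderm genes. The same held for 2 of 10 flanking genes and 1 of 8 cofactors. Called lower were 2 upstream regulators, 1 mesoderm gene and 1 flanking gene. Of 9 pluripotency genes 1 was called higher and 2 lower.

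Without iHA-Foxk1 day 5 replicate 1, over 34040 summits, day 3 had 14 and 19 Hox summits and replicate 2 of day 5 had 55. Of 57 regions 40 (70.2%) were in the day 5 library alone within this N, beside 31.1% of all. At day 3 alone were 2 (3.51%), beside 24.5%. Some of the 40, such as the Hoxa13 promoter, were in both full day 3 lists further down (48781 and 40668). All 9 Hoxa regions and 20 of 24 in Hoxb were day 5-only, against 7 of 13 in Hoxd and 4 of 11 in Hoxc. By class these were 17 of 21 early, 11 of 14 middle and 12 of 22 late regions. Limma called Hoxd3 (1.32 ± 0.20, adjusted p = 7.15e-10), Hoxb9 (1.82 ± 0.30, adjusted p = 3.01e-08) and Hoxb1 (1.81 ± 0.47, adjusted p = 0.00215) higher at day 5. These are 3 of 18 Hox genes tested, beside 6.15% of all genes called higher and 5.97% lower. The other 3 genes called with both libraries were not: Hoxd1 stood at 0.58 (limma adjusted p = 0.317), Hoxd10 at 0.50 (limma adjusted p = 0.781) and Hoxc6, with its sign turned, at -0.29 (limma adjusted p = 0.781). Fibroblast markers had 17 and 21 summits at day 3 and 39 in this day 5 library, and their part was not tested. Upstream regulators (76 against 57 and 59), flanking genes (44 against 29 and 31) and mesoderm genes (40 against 36 and 31) also stood higher. So did cofactors (56 against 43 and 41) and chromatin regulators (56 against 51 and 46). Pluripotency genes stood lower (24 against 34 and 32). These values rest on 1 library.

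The flank of Hoxb1 gave the highest-ranked Hox summit of the series. The site 29 kb beyond the gene (chr11:96397303-96397522 over all libraries) was the one named above and had a summit in all 8 lists. It stood at 72.0% and 70.9% of the KO day 3 lists, 96.9% and 53.4% of the iHA-Foxk1 day 3 lists, 63.1% and 74.2% of the KO day 5 lists and 66.7% and 11.3% of the iHA-Foxk1 day 5 lists. Of its neighbours, a site 13935 to 13947 bp beyond Hoxb1 was listed in both iHA-Foxk1 day 5 libraries (ranks 12250 and 20450) and in no other, and a site 39596 bp beyond it in replicate 2 alone (13777). A site 31807 to 31920 bp out was listed in replicate 1 of the KO at days 3 and 5 (47047 and 35882) and in iHA-Foxk1 day 5 replicate 2 (13551). By rank number both control day 5 libraries therefore held the 29 kb site above every other library. For replicate 1 its short list fixed this, since it ends before the rank of the site in any KO or day 3 library. For replicate 2 the region calls required it against the KO at day 5 and iHA-Foxk1 at day 3. As a share of the list only replicate 2 stood apart.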

How the data were processed

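ATAC-seq summits of 12 mouse embryoid body libraries were taken from the deposited lists. Reads were aligned with Bowtie2 2.2.4 to mm10 and peaks were called with MACS2, whose version is not given in these sources, per the submitters' processing notes. Each summit carries the authors' MACS2 score as deposited, a −log10 of a p- or q-value, which of these not being given. Peaks were called per library and read depth is unknown, so list length alone shows how deep a library was called. Scores served only to rank summits within a list, with equal scores put in a seeded random order.

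Summits on chromosomes 1 to 19 and X were assigned to the nearest protein-coding gene end in RefSeq within 100 kb. The left-out summits (Y, mitochondrial and unplaced sequence) made up 0.144% to 0.896% of a list. Libraries were compared over the N best summits, with N the shortest list of a comparison, merged at 250 bp. A region was called where both libraries of one group and neither of the other held it. Summits per gene, as log2(summits + 1), were tested with limma 3.58.1 in R 4.3.3 over genes with a summit in at least 2 libraries, with Benjamini-Hochberg adjustment over all genes. limma's moderated variance, the planned test, called 455 to 679 unchanged genes on simulated data, so the variance was pooled over genes of like mean. That fit found 87.5% to 98.5% of 200 genes changed 8-fold, with 0 to 6 unchanged genes called. The simulated libraries differed by counting error alone, and the changed genes had a mean of at least 2 summits. Called Hox genes with a lower mean, such as Hoxb1, Hoxc6, Hoxd1 and Hoxd10, lie outside that setting, so it does not test their calls. A gene's own spread does not enter its p, and degrees of freedom were summed over all genes tested, as if genes were replicates.

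Python 3.11.15, numpy 2.4.6 and pandas 2.3.3 were used, and figures were drawn with matplotlib 3.10.9. The members and lists were chosen with earlier results of these data known. Genes were named where a region was called, where all libraries of days 3 and 5 held one, or at the ends of a cluster; Hoxb4 and the sites flanking Hoxb1 were added after their values were seen. Same-numbered libraries did not deviate together in summits per gene (correlations of -0.02 to 0.02), and the main test used no pairing. Counts this small cannot exclude a shared culture or preparation, so whether the numbers pair the libraries is unknown. Alternatives were merging at 100 bp, N divided by 2, all summits, a pseudocount of 0.5, no filter, the moderated variance, tie order, a replicate block and leaving out each library.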

Additional observations from a re-analysis of the deposited data

Results flagged for a closer look

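The genotypes stood in opposite order at days 3 and 5. Taken as the KO mean minus the iHA-Foxk1 mean over the common N, Hox summits differed by 23 at day 3 and by -6.5 at day 5, and every KO library lay on the same side of every control library within a day. Summits in Hoxb differed by 9.5 and -3.5, and those in Hoxd by 5 and -2. Near early genes the differences were 7.5 and -3.5, and near middle genes 7 and -2.5. The difference between the days was not tested, and N is 53456 at day 3 and 14519 at day 5. Over 14519 summits at both days, the day 3 KO libraries had 1 and 1 Hox summits and the controls 3 and 1. Over 34040 summits they had 29 and 20 against 14 and 19.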

How the results depend on the processing

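Tie order by chromosome, chosen after seeing the data as was the return to the moderated variance, left all 10 region counts within 1.5 times. Merging at 100 bp gave 4 control-only regions at day 3, 5 day 5-only regions in the KO and 2 in the control. With N divided by 2, 2 regions were KO-only and 2 control-only at day 3, and the counts of day 5 control-only, KO day 3-only and control day 5-only regions were 0, against 2 day 5-only regions in the KO. Over all summits, with lists of unequal length, day 5 gave 5 regions in the KO alone and 1 in the control alone, 16 day 3-only and 1 day 5-only in the KO, and 13 day 3-only and 1 day 5-only in the control. Hox genes called numbered 2 at day 3 with a pseudocount of 0.5, beside 452 of all 17540 genes. With the moderated variance they numbered 2 at day 5, beside 1282 of 11923 genes. Between the KO days they then numbered 5, beside 1699 of 16770 genes. Without the filter they were 0 between the KO days, beside 395 of 17695 genes, and 1 between the control days, beside 788 of 13934. With N divided by 2 they were 0 in the last 3 comparisons. With a replicate block the counts stayed at 1, 1, 1 and 4. Leaving out each library loosens the rule for a lone library. At day 3 it gave 14 to 30 regions in the KO alone and 3 to 12 in the control alone, 0 to 2 and 3 to 25 at day 5, 14 to 20 day 3-only and 6 to 12 day 5-only in the KO, and 0 to 2 and 4 to 40 in the control. The number of Hox genes called moved in each comparison when a library was left out, and so did the number over all genes. Region counts at day 10 stayed at 0. Apart from the lone-library rule and the shorter or longer lists, the cause was not tested.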
